A study of Mus musculus with 6 samples.

Results

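The genes described here encode the acetylcholine receptor of skeletal muscle and the proteins that gather it at the neuromuscular junction. They are the receptor subunits Chrna1, Chrnb1, Chrnd, Chrne and Chrng, the clustering genes Musk, Dok7 and Rapsn, and the enzyme genes Ache and Colq. These 10 genes were matched by symbol to the Ensembl identifiers of the count tables, which list 54232 gene IDs. The members were chosen by 2 measures of the isotype and DTA-1 libraries, with results of these data known: the library-scaled level and the ratio to the striated muscle myosin genes Myh1, Myh2 and Myh4. Values of the 10 genes in that contrast are therefore a description and carry no test.

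The RNA came from the esophagus of mice that drank the carcinogen 4-NQO (4-nitroquinoline 1-oxide), a quinoline compound that damages DNA and gives squamous tumors. All mice received it, controls included, at 100 µg/ml in the drinking water. Treatment began at an age of 8 weeks, lasted 16 weeks and was followed by 12 weeks of plain water. Over the last 2.5 weeks they had 2 injections a week of 10 µg of either DTA-1, an agonist antibody to the T cell receptor GITR, or an isotype control antibody. Each group has 3 libraries of polyA RNA from tissue enriched for invading cells. The labels give no strain or sex and do not say that a library is 1 mouse. The p-values given here for other genes measure the spread of these libraries only, which may be technical.

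Muscle fibers receive their signal from motor nerves at the junction, where acetylcholine opens a channel built of alpha, beta and delta subunits and a further one. That further place is taken by the gamma subunit (Chrng) in fetal and denervated muscle and by the epsilon subunit (Chrne) in mature junctions. The nerve releases agrin, which binds the receptor LRP4 and activates the kinase MuSK (Musk) with its adaptor Dok-7 (Dok7), and rapsyn (Rapsn) then anchors receptors in clusters under the nerve ending. Acetylcholinesterase (Ache), held in the synaptic cleft by the collagen tail ColQ (Colq), breaks the transmitter down. The esophagus of the mouse has an outer coat that is largely striated muscle, so its RNA holds these transcripts.

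The libraries held 23147873 to 29065162 counts. Striated muscle and squamous epithelium were both plain in every library: the 29 striated muscle contractile genes summed to 69670 to 140800 CPM in isotype and 148200 to 214500 in DTA-1 libraries. CPM are counts scaled to a common library size by TMM, a method that evens out differences in library composition. The 11 differentiated squamous genes summed to 21710 to 41500 CPM in isotype libraries and to 21820, 6333 and 7100 CPM in DTA-1 replicates 1, 2 and 3. DTA-1 replicate 2 held 2994 CPM of red cell transcripts, against 131.3 to 218.4 in the others. In bulk RNA, fewer cells of a type and less RNA per cell cannot be told apart.

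Transcripts of the receptor's alpha, beta, delta and gamma subunits did not overlap between groups and were higher with DTA-1, at about 1.83 to 2.37 times the isotype level. Chrna1, the subunit that carries the acetylcholine binding site (chromosome 2, 73563215 to 73580338, GRCm38, minus strand, ENSMUSG00000027107), had 43.6, 33.6 and 49.8 CPM in the isotype libraries, in the order of replicates 1, 2 and 3 used throughout. The DTA-1 libraries had 89.3, 97.4 and 73.3 CPM. The lowest DTA-1 library was well above the highest isotype library, and the log2 fold change was 1.03 ± 0.20 (SE).

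Chrnb1, the beta subunit (chromosome 11, 69784036 to 69795943, ENSMUSG00000041189), stood at 53.2, 37.3 and 64.2 CPM in isotype and 80.7, 128.9 and 80.6 CPM in DTA-1 libraries. DTA-1 replicate 2 stood apart on the high side, and the groups did not overlap. Chrnd, the delta subunit (chromosome 1, 87190607 to 87200070, ENSMUSG00000026251), stood at 18.3, 13.4 and 17.1 CPM against 22.4, 33.1 and 33.7 CPM. Here DTA-1 replicate 1 was the nearest to the isotype libraries. The log2 fold changes were 0.91 ± 0.27 (SE) for Chrnb1 and 0.87 ± 0.22 for Chrnd.

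The gamma and epsilon subunits were scarce. Chrng, the fetal gamma subunit (chromosome 1, 87204657 to 87212694, ENSMUSG00000026253), was counted with 47, 21 and 16 reads in isotype and 46, 46 and 75 reads in DTA-1 libraries, or 1.73, 0.79 and 0.58 CPM against 2.0, 2.17 and 3.21 CPM. The groups did not overlap, but isotype replicate 1 came close to the DTA-1 libraries. Chrne, the adult epsilon subunit (chromosome 11, 70614883 to 70619216, ENSMUSG00000014609), had 42, 25 and 74 reads against 44, 97 and 86, or 1.55, 0.94 and 2.67 CPM against 1.91, 4.57 and 3.68 CPM. DTA-1 replicate 1 lay below isotype replicate 3, so the Chrne groups overlapped. The log2 fold changes were 1.25 ± 0.50 (SE) for Chrng and 0.97 ± 0.51 for Chrne, and they were 1.85 for Chrng without isotype replicate 1 and 1.46 for Chrne without isotype replicate 3.

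**Figure D1:**
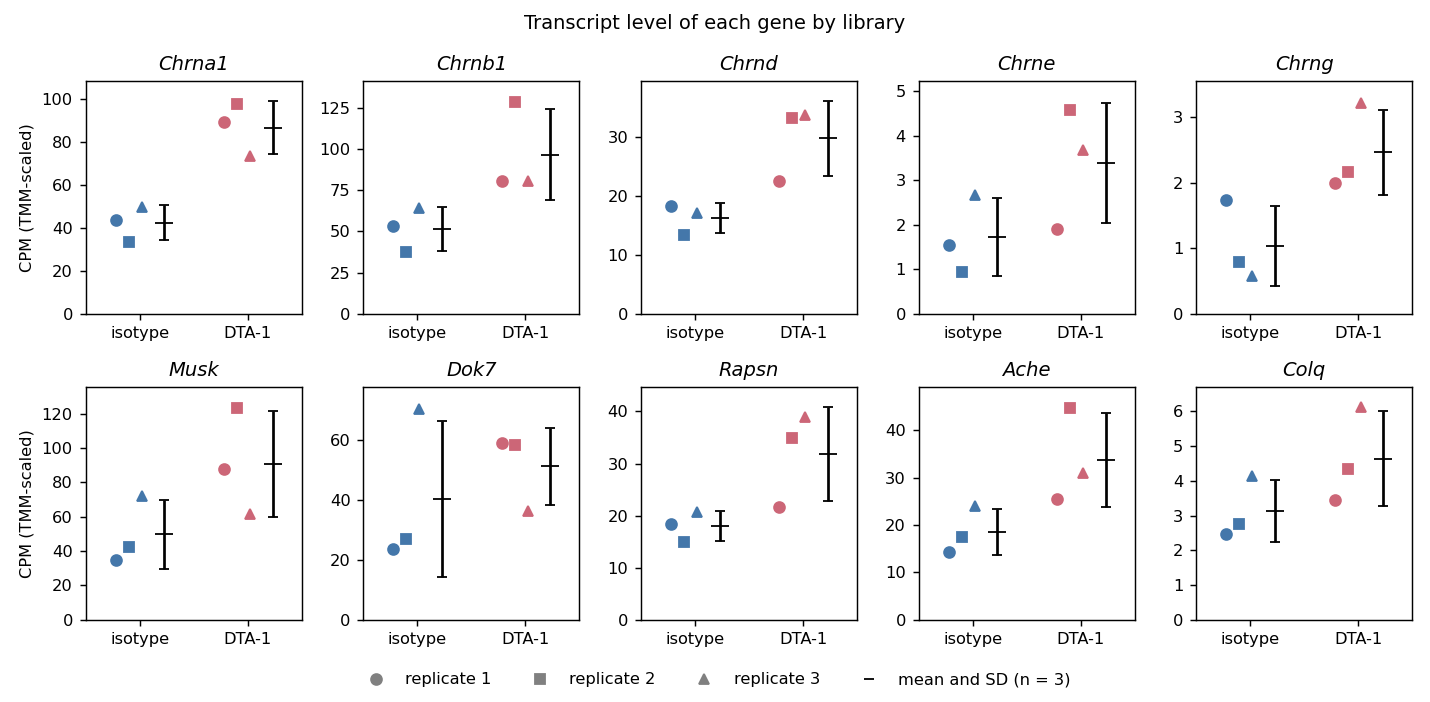
TMM-scaled CPM of each gene (linear axes that start at 0) in the 3 isotype (blue) and 3 DTA-1 (red) libraries, with the mean and SD of each group beside the points. The groups are separate for Chrna1, Chrnb1, Chrnd, Chrng, Rapsn and Ache and overlap for Chrne, Musk, Dok7 and Colq.

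Promoter sequences are shown for the alpha, gamma and epsilon subunit genes, since gamma and epsilon take the same place in the receptor and alpha is common to both forms. Of the 10 genes, 7 have an entry in the RefSeq promoter table (GRCm38.p6), each window running from 250 bases before to 50 bases after a transcript start: Chrna1, Chrnb1, Chrne, Chrng, Musk, Dok7 and Ache. Chrnd, Rapsn and Colq do not. Capitals mark CANNTG, the E-box that myogenic factors such as myogenin bind, and CCGGAA, the N-box known from junction genes; both strands were searched, and no E-box overlapped an N-box in these windows.
Chrna1, chr2:73580289-73580588, minus strand: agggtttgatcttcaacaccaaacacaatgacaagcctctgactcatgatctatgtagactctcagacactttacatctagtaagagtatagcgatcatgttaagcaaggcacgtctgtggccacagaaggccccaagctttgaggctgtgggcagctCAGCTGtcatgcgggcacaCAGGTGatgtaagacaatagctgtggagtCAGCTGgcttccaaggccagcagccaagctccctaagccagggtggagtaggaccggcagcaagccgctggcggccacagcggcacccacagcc
Chrng, chr1:87205561-87205860, plus strand: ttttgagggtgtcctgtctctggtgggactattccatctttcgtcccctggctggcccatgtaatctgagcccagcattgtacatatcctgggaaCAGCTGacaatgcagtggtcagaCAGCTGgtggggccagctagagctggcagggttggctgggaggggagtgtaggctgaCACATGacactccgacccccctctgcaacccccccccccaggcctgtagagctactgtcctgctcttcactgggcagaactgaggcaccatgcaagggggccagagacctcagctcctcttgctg
Chrne, chr11:70619145-70619444, minus strand: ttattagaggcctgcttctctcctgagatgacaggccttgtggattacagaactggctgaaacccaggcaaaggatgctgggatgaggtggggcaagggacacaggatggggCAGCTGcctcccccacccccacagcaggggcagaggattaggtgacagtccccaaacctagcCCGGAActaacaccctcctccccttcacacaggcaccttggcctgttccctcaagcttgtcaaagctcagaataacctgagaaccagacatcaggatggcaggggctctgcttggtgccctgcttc

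The Chrna1 and Chrng windows each hold 3 E-boxes, as do those of Chrnb1 and Musk. The Chrne window holds 1 E-box and 1 N-box, the latter beginning 76 bases before the start, and it is the only one of the 8 windows of these genes (Dok7 has a pair) with an N-box. Among all 32851 promoter windows of this length, 72.3% hold an E-box, 17.6% hold 3 or more, and 14.9% hold an N-box on either strand. A match describes the letters and does not show that a factor binds.

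Of the clustering genes, Rapsn separated the groups, and Musk and Dok7 did not. Rapsn, the scaffold that ties receptors to one another (chromosome 2, 91035620 to 91045729, ENSMUSG00000002104), stood at 18.4, 14.9 and 20.7 CPM in isotype and 21.7, 35.0 and 38.8 CPM in DTA-1 libraries. DTA-1 replicate 1 exceeded isotype replicate 3 by about 1 CPM. The log2 fold change was 0.82 ± 0.26 (SE).

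Musk, the kinase at the center of junction assembly (chromosome 4, 58285960 to 58374303, ENSMUSG00000057280), stood at 34.6, 42.2 and 72.3 CPM in isotype and 87.6, 123.1 and 61.6 CPM in DTA-1 libraries. Isotype replicate 3 lay above DTA-1 replicate 3, so the groups crossed even though their means were 49.7 ± 19.9 and 90.8 ± 30.9 CPM (SD, n = 3 each). Dok7, the adaptor that MuSK needs to become active (chromosome 5, 35056766 to 35087839, ENSMUSG00000044716), stood at 23.7, 27.2 and 70.6 CPM against 59.0, 58.6 and 36.5 CPM. For Dok7 the highest library of all 6 was isotype replicate 3. The log2 fold changes were 0.87 ± 0.35 (SE) for Musk and 0.34 ± 0.44 for Dok7, and with single libraries left out that of Dok7 ran from 0.08 (without isotype replicate 1) to 1.04 (without isotype replicate 3).

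Ache, the enzyme that ends the signal (chromosome 5, 137287519 to 137294466, ENSMUSG00000023328), stood at 14.3, 17.5 and 24.0 CPM in isotype and 25.4, 44.8 and 31.0 CPM in DTA-1 libraries. The groups did not overlap, and the highest value belonged to DTA-1 replicate 2. Red cells also make this enzyme, and that library held the high red cell signal, with Hbb-bs at 1795 CPM and Alas2 at 106.8 CPM against at most 107.7 and 4.65 in the other 5. The log2 fold change of Ache was 0.86 ± 0.28 (SE) with all libraries and 0.60 without DTA-1 replicate 2. DTA-1 replicate 1, at 25.4 CPM, lay just above isotype replicate 3, at 24.0 CPM. The part of red cells in the Ache values was not tested. Colq, the collagen tail of the enzyme (chromosome 14, 31523082 to 31591343, ENSMUSG00000057606), stood at 2.47, 2.75 and 4.15 CPM against 3.44, 4.33 and 6.12 CPM. DTA-1 replicate 1 fell under isotype replicate 3, and the log2 fold change was 0.57 ± 0.36 (SE). Leaving out DTA-1 replicate 3 gave 0.32, and leaving out isotype replicate 3 gave 0.85.

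All 10 genes are annotated as protein-coding and all 10 passed the filter on low counts. All 10 had log2 fold changes above 0, as had 47.1% of the 15763 genes tested. Their median was 0.87 against -0.03 over all tested genes. In 6 of the 10 the lowest DTA-1 library exceeded the highest isotype library, a pattern shown by 8.6% of all tested genes, and in none of the 10 below, against 9.38%. Without isotype replicate 3 the count was 10 of 10. Fewer libraries make overlap less likely for any gene, and the share of all genes was not counted in that setting. By library, DTA-1 replicate 2 was the highest for 5 of the genes, DTA-1 replicate 3 for 4 and isotype replicate 3 for Dok7. The choice of these genes used this contrast, so nothing is read from these counts.

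Markers of striated muscle itself lay on the same side: 28 of 29 contractile genes had log2 fold changes above 0, with a median of 0.85, and their summed level did not overlap between groups. The muscle satellite cell genes had a median of 0.84 over the 5 tested, and their summed level ran from 43.0 to 70.8 CPM in isotype and from 59.6 to 100.4 CPM in DTA-1 libraries. Smooth muscle, whose median was 0.005, and Schwann cells, which cover the junction and had a median of 0.32, overlapped between groups in summed level. Des, also on the striated list, gave 5989 to 13170 CPM of the smooth muscle sums of 8500 to 22010 CPM. Smooth muscle Myh11 varied widely within both groups, at 112, 2895 and 2073 CPM in isotype and 993.9, 143.1 and 2519 CPM in DTA-1 libraries. The Schwann cell sums, 167.8 to 231 CPM, include 27.9 to 83.1 CPM of Erbb3, which squamous epithelium also makes.

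EdgeR's quasi-likelihood test with Benjamini-Hochberg adjustment called 0 of 15763 genes (0.0%), these 10 included. At an unadjusted p under 0.05 edgeR counted 7 of the 10, all higher with DTA-1, and 12.7% of all genes, 5.21% higher and 7.52% lower. Limma-voom called 0 genes (0.0%), with 13.8% at the unadjusted level, and DESeq2 called Chrna1 alone of the 10 beside 1.12% of 16084 genes (0.267% higher). Without DTA-1 replicate 1, edgeR called Chrnd and Rapsn among 601 genes, 3.69% of 16303 (0.38% higher). The 10 genes were chosen with this contrast known, so their p-values and calls are a description and nothing is read from them.

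Set against the muscle myosins, log2 differences of the 10 genes ran from -0.44 to 0.43, with SEs from 0.20 to 0.78. Summed reads of Myh1, Myh2 and Myh4, which encode the fast myosin heavy chains of striated fibers, stood at 9224, 7674 and 17380 CPM in isotype and 17920, 25210 and 18930 CPM in DTA-1 libraries. Isotype replicate 3 nearly reached DTA-1 replicate 1, and the difference of the mean log2 values was 0.93. These 2 libraries were alike in summed myosin, but Myh4 stood at 766 and 2411 CPM. Their differentiated squamous genes summed to 41500 and 21820 CPM. Between them, 1 library of each group, the junction genes were mixed. Chrna1 (49.8 and 89.3 CPM), Chrnb1, Chrnd, Chrng and Musk were higher in the DTA-1 library, Rapsn (20.7 and 21.7 CPM) and Ache (24.0 and 25.4 CPM) were nearly equal, and Dok7 (70.6 and 59.0 CPM), Chrne and Colq were lower. The 10 junction genes had a median log2 difference of -0.06 in their ratio to these myosin reads, 7 of them below 0. Over all tested genes the median of that ratio difference was -0.96, and 97.3% were below 0. This background is set by the denominator: the median gene was at -0.03 in CPM, and the myosin sum was 0.93 higher.

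Chrna1 had 472.3, 437.5 and 286.4 reads per 100000 myosin reads in isotype and 498.1, 386.4 and 387.4 in DTA-1 libraries. The order of the libraries on this scale mixed the groups, with isotype replicate 3 lowest and DTA-1 replicate 1 highest. Chrnb1 had 576.6, 486.2 and 369.5 against 450.6, 511.4 and 426.0, so its highest and lowest libraries were both isotype. Isotype replicate 3 was also the lowest of the 6 for Chrnd, Rapsn and Chrng on this scale.

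Rapsn had 199.0, 193.7 and 118.9 reads per 100000 myosin reads in isotype and 120.8, 138.7 and 205.2 in DTA-1 libraries. Chrnd was high in the same 3 libraries, isotype replicates 1 and 2 and DTA-1 replicate 3, with 198.2, 175.0 and 98.4 against 125.2, 131.4 and 178.1. Both genes were low in isotype replicate 3 and DTA-1 replicate 1, across the groups. Dok7 had 256.9, 353.9 and 406.2 against 329.3, 232.5 and 192.6, and its log2 difference of -0.44 ± 0.30 (SE) was the lowest of the 10 with all libraries. Colq was lower than Dok7 without isotype replicate 3 (-0.50 and -0.30) and without DTA-1 replicate 3 (-0.65 and -0.27). Chrng had the highest with all libraries, 0.43 ± 0.78, from 18.8, 10.3 and 3.32 against 11.2, 8.60 and 17.0 reads per 100000 myosin reads. It was 0.98 without isotype replicate 1 and -0.25 without isotype replicate 3, where its direction turned and Chrne was higher at 0.10. Without DTA-1 replicate 3 Chrna1, at 0.1706, was just above Chrng, at 0.1665.

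On this ratio 0 of the 10 genes had all DTA-1 libraries above the isotype libraries and 0 had all of them below, against 0.0825% and 31.8% of all tested genes. The shares of all genes carry the higher myosin sum of the DTA-1 libraries. The rule for choosing the genes names this ratio, so these counts too are a description. The median log2 difference of the 10 lay between -0.12 and 0.08 with Acta1, Ckm, Ttn, the whole striated muscle list or a myosin sum that includes Myh8 as the denominator. Against these denominators the groups overlapped for all 10 genes, save Colq against Ttn. There Colq was lower in all DTA-1 libraries only with the small constant added to reads in the log2 ratios. On plain reads DTA-1 replicate 3 (143 Colq and 139061 Ttn reads) lay just above isotype replicate 1 (67 and 65364), so the groups overlapped. Myh8, the perinatal myosin, was not among the 3 myosins of the ratio, although its reads came to 84.4% to 125% of their sum, and reads of these near-identical genes may be split between copies. Myh1 made up 78.8% to 95.9% of the 3-gene sum, and Myh4 ranged from 1.68% to 20.9%.

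**Figure D2:**
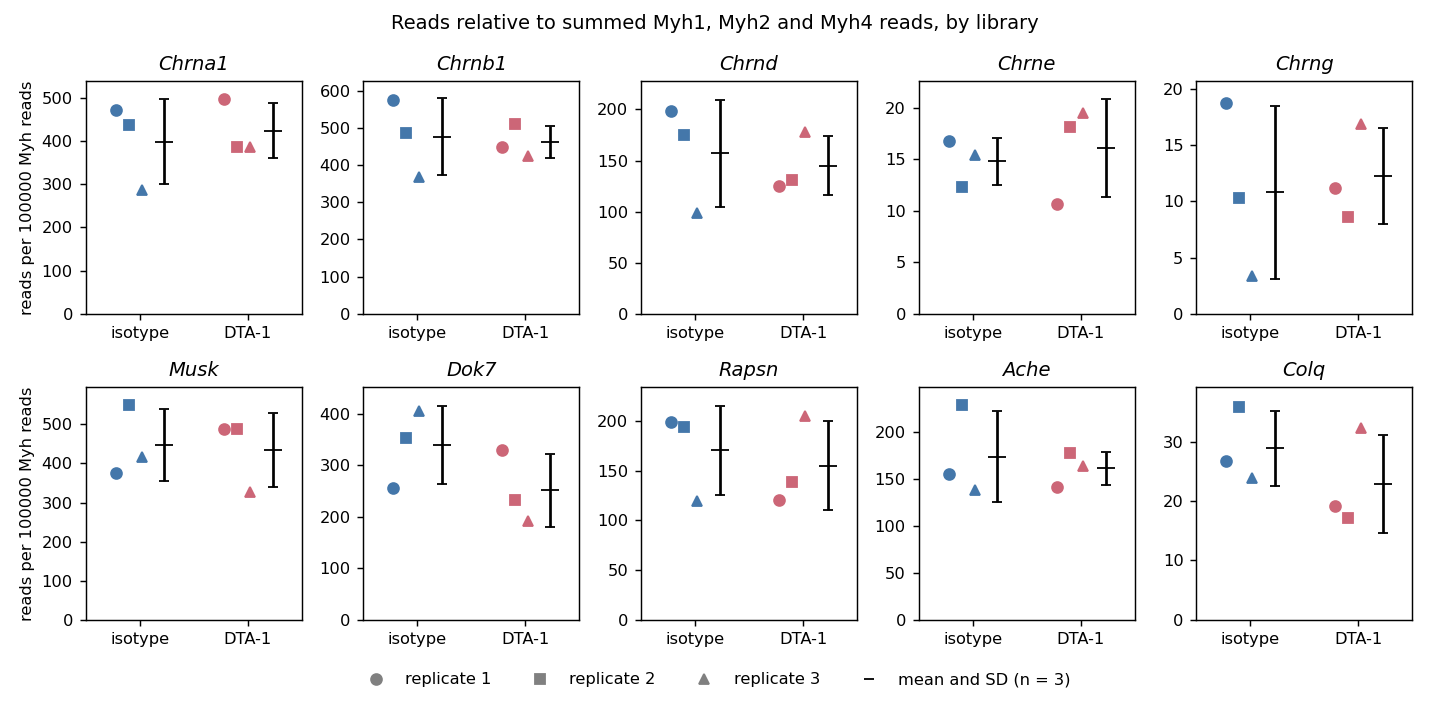
Reads of each gene per 100000 summed Myh1, Myh2 and Myh4 reads (linear axes that start at 0), by library, with the mean and SD of each group. The isotype and DTA-1 points overlap in all 10 panels, and isotype replicate 3 (blue triangle) is lowest for Chrna1, Chrnb1, Chrnd, Chrng, Rapsn and Ache.

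With the mean log2 CPM of the striated muscle list as a covariate in edgeR, the median log2 fold change of the 10 genes was 0.05. Under that fit the log2 fold change was 0.56 ± 0.29 (SE) for Chrna1, 2.18 ± 0.99 for Chrng, -0.44 ± 0.66 for Chrne and -0.82 ± 0.48 for Dok7. The covariate itself did not overlap between the groups, running from 9.87 to 10.65 in isotype and from 10.85 to 11.33 with DTA-1, so muscle content and treatment cannot be told apart in these 6 libraries.

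**Figure D3:**
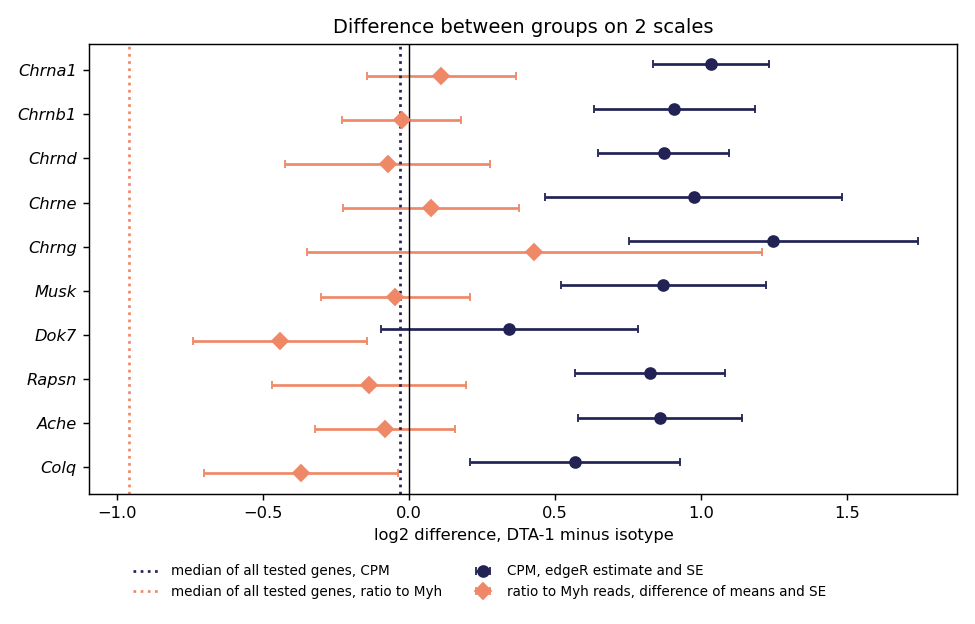
Log2 difference, DTA-1 minus isotype, of each gene in CPM (dark circles, edgeR estimate and SE) and in the ratio to Myh reads (orange diamonds, difference of group means and SE), with the medians of all 15763 tested genes as dotted lines. The CPM values lie at 0.34 to 1.25, and the ratio values lie around 0, from -0.44 to 0.43.

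Compared per kb of merged exons, Chrnb1 was the most abundant of the 10 transcripts, with a mean of 29.3 CPM per kb over the 6 libraries (SD 12.5), and it exceeded the next gene in all 6. Musk followed at 18.6, Chrna1 at 14.7, Rapsn at 13.8 and Dok7 at 10.7 CPM per kb. Neighbors in this part of the order changed places between libraries: Musk was above Chrna1 in 4 of 6, Chrna1 above Rapsn in 2 of 6 and Rapsn above Dok7 in 4 of 6. Chrnd at 7.00 lay above Ache at 5.66 in 6 of 6 libraries. At the low end were Chrne at 1.51, Colq at 1.02 and Chrng at 0.42 CPM per kb, with Chrne above Colq in 5 of 6 and Colq above Chrng in 6 of 6.

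The order in the middle depends on the transcript model. With the length of the APPRIS principal transcript (the main isoform that GENCODE marks) in place of merged exons, Dok7 took the third place at 16.5 CPM per kb and Ache, at 12.0, passed Chrnd, at 7.87. Chrnb1 and Musk kept the first and second place, and Chrne, Colq and Chrng the last.

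**Figure D4:**
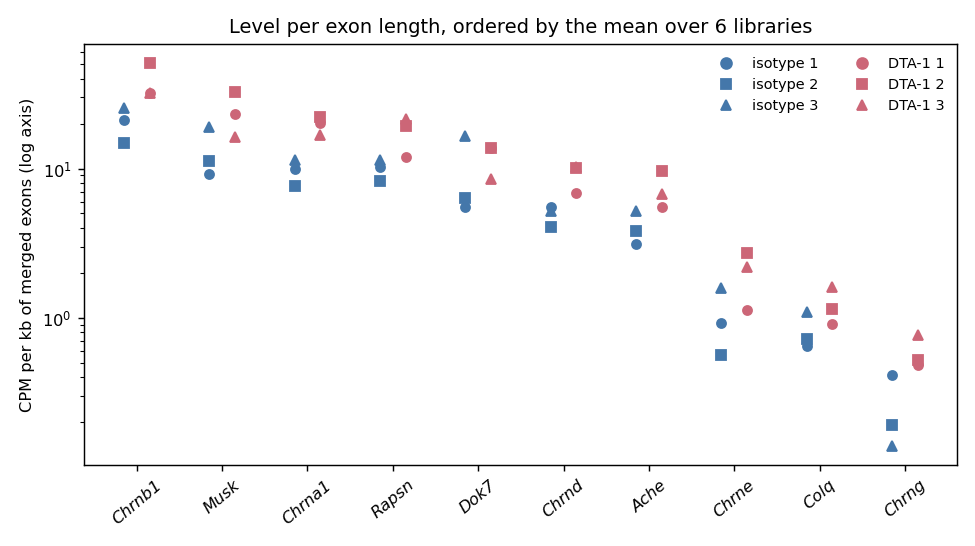
CPM per kb of merged exons (log axis) for each gene in the 3 isotype (blue) and 3 DTA-1 (red) libraries, ordered by the mean over 6 libraries. Chrnb1 has the highest mean, 29.3, and Chrng the lowest, 0.42 CPM per kb.

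The balance of fetal gamma to adult epsilon subunit reads differed between libraries of the same group. Chrng made up 52.8% of the reads of both genes in isotype replicate 1 (95% Clopper-Pearson interval 41.9% to 63.5%), 45.7% in replicate 2 (30.9% to 61.0%) and 17.8% in replicate 3 (10.5% to 27.3%). In DTA-1 replicates 1, 2 and 3 it made up 51.1% (40.3% to 61.8%), 32.2% (24.6% to 40.5%) and 46.6% (38.7% to 54.6%). The interval of isotype replicate 3 lay below those of all other libraries save DTA-1 replicate 2, whose interval it overlaps, and the groups overlapped. Per kb of merged exons the gamma share ran from 8.07% to 31.2%, and per kb of principal transcript it was at most 39.0%, so epsilon exceeded gamma in each library on either length. The intervals cover counting error only.

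**Figure D5:**
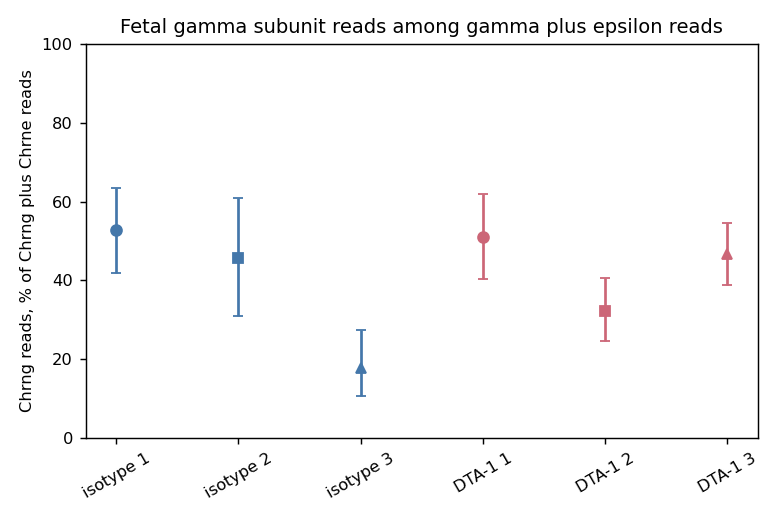
Reads of Chrng as a percentage of Chrng plus Chrne reads in each library, with 95% Clopper-Pearson intervals. Isotype replicate 3 is lowest at 17.8%, and the other 5 libraries lie between 32.2% and 52.8%.

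Among the 45 pairs of these genes, Chrnd and Rapsn kept the steadiest ratio. The log2 ratio of their reads had an SD of 0.12 over the 6 libraries, and Chrnd reads were 0.827 to 1.04 times Rapsn reads. Chrna1 and Chrnb1 came next with an SD of 0.20. The median SD over pairs was 0.50, and the widest was Chrng with Dok7 at 1.22, their ratio varying 10.77-fold between libraries. Chrng has the fewest reads of the 10, and counting error adds to that spread.

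No gene of the 10 shares more than 5.23% of its merged exon length with another annotated gene, and the overlapping genes had 0 to 18 reads in any library. The strand setting of the counting is not given, so reads of overlapping genes on opposite strands cannot be told apart.

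Other genes of the junction pathway lay on both sides of 0, and none passed edgeR's test. Of 37 agrin, neuregulin and scaffold genes, 24 had log2 fold changes above 0 and 13 below, with a median of 0.11. In 9 of the 37 the groups did not overlap and DTA-1 was higher (8.6% of all genes), and in 2 DTA-1 was lower (9.38%). Agrn, which encodes agrin, the nerve-derived and epithelial matrix protein that activates MuSK, stood at 133.1, 106.4 and 61.0 CPM in isotype and 56.5, 44.9 and 42.1 CPM in DTA-1 libraries, opposite in direction to Musk. Its log2 fold change was -1.07 ± 0.29 (SE), with an adjusted p of 0.39 in edgeR.

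Lrp4, the agrin receptor on muscle, stood at 36.9, 39.6 and 52.2 CPM in isotype and 54.6, 83.7 and 54.5 CPM in DTA-1 libraries. Its groups did not overlap; the log2 fold change was 0.58 ± 0.23 (SE), and edgeR gave an adjusted p of 0.39. The scaffold gene Sspn (sarcospan) and the chaperone gene Dnaja3, whose product binds MuSK, also separated the groups. The isotype and DTA-1 means were 120.5 ± 33.6 and 196.3 ± 26.2 CPM for Sspn, and 93.0 ± 4.38 and 124.4 ± 10.5 CPM for Dnaja3 (SD, n = 3). Both had an adjusted p of 0.39 in edgeR. Utrn, the dystrophin relative of the junction, had a log2 fold change of 0.33 ± 0.18 (SE), with an adjusted p of 0.433 in edgeR.

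Of the neuregulin receptors, Erbb2 had 87.1, 87.8 and 86.9 CPM in isotype and 72.8, 38.1 and 29.4 CPM in DTA-1 libraries, without overlap (log2 fold change -0.90 ± 0.33). Erbb3 had 64.8, 79.1 and 83.1 CPM against 70.4, 44.3 and 27.9 CPM, and its groups overlapped. The adjusted p in edgeR was 0.39 for Erbb2 and 0.409 for Erbb3. Nrg1, their ligand, overlapped between groups at 16.7, 6.07 and 4.83 CPM against 14.1, 2.73 and 5.56 CPM. Agrin and these receptors are also made by squamous epithelium, and all 10 basal and all 11 differentiated squamous genes had log2 fold changes below 0. The summed basal genes stood at 17480, 9949 and 5232 CPM in isotype and 11740, 3846 and 4883 CPM in DTA-1 libraries. The part of the epithelium in the values of Agrn, Erbb2 and Erbb3 was not tested.

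Genes of the synaptic matrix differed little: of 16, 10 had log2 fold changes above 0, with a median of 0.09. Lama5, a laminin chain of that matrix and of epithelial basement membranes, had 94.0, 99.8 and 88.5 CPM in the isotype group and 85.3, 63.8 and 74.1 CPM with DTA-1. Its groups did not overlap, and edgeR gave an adjusted p of 0.405. Prima1, the membrane anchor of the enzyme in nerve, and Col13a1, a junction collagen, overlapped between the groups.

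Denervated muscle is known to raise receptor genes through myogenin. Of 13 tested genes of that response, 10 had log2 fold changes above 0 (47.1% of all tested genes), with a median of 0.71. Those below 0 were Runx1 (-0.76), Cdkn1a (-0.37) and Gadd45a (-0.14). In 3 of the 13 the groups did not overlap and DTA-1 was higher (8.6% of all tested genes), and in 0 DTA-1 was lower (9.38%). The 29 striated muscle genes had a median of 0.85. Myog, which encodes myogenin, stood at 13.9, 8.00 and 12.3 CPM in isotype and 14.2, 20.4 and 27.0 CPM in DTA-1 libraries. DTA-1 replicate 1 lay just above isotype replicate 1. Its log2 fold change was 0.84 ± 0.31 (SE), and that of the ubiquitin ligase gene Trim63, which is active in wasting muscle, 0.92 ± 0.31. Ncam1, an adhesion gene that denervated fibers express, had 27.9, 23.7 and 35.0 CPM in isotype and 35.9, 40.1 and 39.7 CPM in DTA-1 libraries. None passed edgeR, with an adjusted p of 0.39 for Myog and Trim63 and 0.397 for Ncam1.

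Of 11 nicotinic subunits not used by the muscle receptor, 4 passed the filter, and Chrna9 had the most reads of the 11. Chrna9, best known from hair cells of the inner ear, stood at 5.20, 9.96 and 18.3 CPM in isotype and 15.5, 44.9 and 21.4 CPM in DTA-1 libraries. Its reads came to 11.9% to 46.1% of Chrna1 reads. DTA-1 replicate 1 lay below isotype replicate 3, and the log2 fold change was 1.29 ± 0.55 (SE), with an adjusted p of 0.394 in edgeR. Chrnb2, a neuronal subunit, had 2.58, 2.30 and 1.91 CPM in isotype and 1.48, 1.37 and 0.98 CPM in DTA-1 libraries. Its groups did not overlap, and edgeR gave an adjusted p of 0.391. Chrna10, the usual partner of Chrna9, was at 0.43 to 1.41 CPM, and Chrnb3 had 0 reads in all 6 libraries.

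Chat, which makes acetylcholine, had 0, 2 and 5 reads in isotype and 1, 2 and 3 reads in DTA-1 libraries. Of 12 cholinergic nerve genes, listed as mRNAs of neuron bodies and not of nerve endings, 10 passed the filter. Of these, 9 had log2 fold changes above 0 (47.1% of all tested genes). Groups without overlap were seen for 0 of the 10, against 8.6% of all tested genes higher with DTA-1 and 9.38% lower. The 3 muscarinic receptors tested overlapped between groups: Chrm2, the main one of smooth muscle, stood at 7.04, 214.8 and 126.0 CPM in isotype and 71.4, 13.6 and 157.5 CPM in DTA-1 libraries.

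Of 9 genes for the assembly or modulation of nicotinic receptors, 3 had log2 fold changes above 0 and 6 below. Lypd6 and Lynx1, whose products bind nicotinic receptors at the cell surface, overlapped between groups. Lypd6 had 1.66, 4.79 and 4.37 CPM in isotype and 2.0, 0.66 and 0.90 CPM in DTA-1 libraries (adjusted p 0.39 in edgeR).

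The 5 genes whose log2 CPM followed that of Chrna1 most closely over the 6 libraries, other than the 10, were Gm26977, Mgme1, Prmt7, Cbfa2t2 and Nup133. Their Pearson correlations with Chrna1 were 0.996, 0.993, 0.992, 0.989 and 0.985. The 6 points share the group difference and the scaling, so the values are given without a test. Mgme1, a nuclease gene of mitochondrial DNA upkeep, stood at 11.7, 10.1 and 11.8 CPM in isotype and 15.4, 16.9 and 14.6 CPM in DTA-1 libraries, a smaller difference than that of Chrna1. Gm26977 was scarce, at 0.19 to 0.90 CPM.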

How the data were processed

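The members and gene lists were chosen with earlier results of these data known. Whole-number read counts per Ensembl gene, 1 file per library, were deposited by the authors without normalization. The submitters' processing notes name HTSeq 0.6.1p1, STAR, cutadapt 1.13, DESeq2 1.14.1 and build mm10, without order, settings or strand. Symbols and positions came from GENCODE M21 (GRCm38). FilterByExpr (minimum count 10 and total 15) kept 15763 genes, which were scaled by TMM and tested with edgeR 4.0.16 (robust quasi-likelihood, treatment only, Benjamini-Hochberg at 0.05) in R 4.3.3; DESeq2 1.42.0 and limma 3.58.1 were alternatives. Ratios used log2((reads + 0.5) / (Myh1 + Myh2 + Myh4 reads)). Named genes were the 10 members, the 3 genes with the smallest p of each of 7 pathway lists, 11 fixed genes and the 5 nearest to Chrna1; others, such as Chat, Chrnb3 and Myh8, were chosen after their values were seen. Tested on simulated counts for DTA-1 against isotype (15533 genes), edgeR found 60% of the genes set to differ 4-fold and 3% of those set to differ 2-fold, and made 8 false calls. No 2 libraries matched within sampling noise (smallest median chi-square per gene 3.91).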

Additional observations from a re-analysis of the deposited data

How the results depend on the processing

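Added after the data were seen were the newer edgeR method, the count of genes without overlap under other settings, a myosin sum with Myh8 and the principal transcript length. DESeq2 called 180 genes where edgeR called 0, and edgeR's count ranged from 0 to 601 with single libraries left out, the highest being without DTA-1 replicate 1. The median log2 fold change of the 10 genes was 0.87, 0.0474 with the muscle score as covariate, 0.67 to 1.07 with single libraries left out, and 0.72 to 0.95 under the other scalings. With library totals alone the median of all tested genes was -0.19 against -0.03. The count of genes without overlap, 6 of 10, ranged from 6 to 10 with single libraries left out. Overlap is less likely for any gene with fewer libraries, and the share of all genes was not counted there. The median ratio difference to the myosins ranged from -0.24 to 0.06 with single libraries left out. Of 170 refitted fold changes of single genes, 158 moved by less than 1 SD between replicates, and 3 changed sign, those of Chrne, Musk and Dok7 under the muscle covariate; all 130 refitted ratio differences moved by less than 1 SD, but all of these genes except Dok7 and Colq changed sign in at least one, Chrng from 0.43 to -0.25 without isotype replicate 3. Same-numbered libraries of the 2 groups did not deviate together (correlations 0.017, -0.333 and -0.086), so the numbers were not taken as pairs. With the replicate number as a block the median fold change was 0.88, the ratio difference was -0.06 and edgeR called 0 genes, 1632 at an unadjusted p under 0.05 against 2006 without it. Chrng, Chrne and Colq, with 16 to 143 reads a library, are limited most by depth.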
